A study of Bos taurus with 27 samples.

Results

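Parthenotes were compared with in vitro fertilised (IVF) embryos late in the 8-cell stage, using 18 of the 27 RNA libraries of a bovine series. The 11 parthenote libraries were Bos taurus at the 8-cell stage, and the 7 late 8-cell IVF libraries were replicates 2 to 8 of F1 embryos from Bos taurus and Bos indicus (BosTarus_x_BosIndicus_F1 in the labels). Replicate 1 of the late 8-cell IVF group was left out of the tests and is given beside them. The measured values chose it: over the tested loci its levels correlated with those of parthenotes at 0.733 to 0.858 and with those of the other 7 late libraries at 0.325 to 0.475 (Pearson's r on the log2 scale, across loci). The p-values below take that choice as given. Counts of called loci and transcripts, of loci per library at 1 and 100 FPKM, and of loci on in a single group are also given with this library put back. The counts without overlap, the level classes and the highest loci are given without it only. The remaining 8 libraries, of F1 IVF embryos at the 8-cell stage, carry another request number (18062, against 19058 for the 18 libraries and late replicate 1) and are set beside the results as levels only.

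The labels give culture under oil in SOF medium at 38.5 C for the libraries. The culture protocol names fertilised and cloned embryos, and how oocytes were activated to make parthenotes is not given in the sources used here. Nor do the labels give the hours that set "late" apart, or what a library was made from (a blastomere, an embryo, several embryos) and whether replicates were cultured separately. The p-values therefore measure the spread between these libraries, which may be partly technical. The breed and the lack of fertilisation separate the same libraries as the labelled stage, so these cannot be told apart.

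A parthenote starts from an oocyte that is activated without sperm, so its chromosomes are all maternal and genes expressed from the paternal copy alone have no active copy. A mammalian embryo first lives on RNA and protein stored in the oocyte. It then degrades much of that store and begins to transcribe its own genes, a handover called embryonic genome activation, which in cattle falls mainly around the 8-cell stage. A comparison across this handover contains both RNA that is being cleared and RNA that is being made.

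The deposited values were FPKM (fragments scaled by the length of the transcript and the size of the library). They covered 116933 loci with 173449 transcripts between them. The identifiers carry no gene name, 0 of them matched the gene table at hand, and no position is given. Genes and marker lists could therefore not be examined, and the labelled identity of the embryos could not be checked against marker genes. Loci are described by level, by direction and by how the libraries varied. For each locus the transcript with the highest mean over the 18 libraries was used, and a level is relative to all RNA in the library, so less RNA per cell and fewer cells cannot be told apart.

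Sequencing depth can be read from FPKM only in relative terms, from the steps that whole reads leave among low values. It ran from 0.683 to 1.38 in parthenotes and from 0.337 to 1.66 in late 8-cell IVF, with the median library of the series near 1. The means were 1.04 ± 0.21 (SD, n = 11) in parthenotes and 1.19 ± 0.443 (SD, n = 7) in late 8-cell IVF, a difference that did not pass (exact two-sided permutation test, p = 0.352, and 0.55 after adjustment over 8 measures). Late replicate 6 was the shallowest library, and without it the difference was -0.291 (exact permutation test, adjusted p = 0.0446). Parthenote replicate 4 stood apart from its group, with correlations of 0.695 to 0.807 to the other parthenotes, which correlated with each other at 0.808 to 0.931.

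Most of the loci that passed the filter on low values differed between the groups. Of 12459 loci that reached 1 FPKM in at least 7 libraries, 5992 were higher in parthenotes (48.1% of those tested) and 3305 were lower (26.5%), together 74.6% (limma on log2(FPKM + 1), Benjamini-Hochberg adjusted p under 0.05). With late replicate 1 put back, 5782 loci were higher and 3050 lower of 12728, or 69.4%. With no filter, 19.7% of the 81182 loci above 0 in any of the 18 libraries passed. Differences of 2-fold or more made up 4085 of the higher loci (32.8% of those tested) and 2521 of the lower loci (20.2%), and with late replicate 1 these were 3465 and 2241. Both counts depend on the 1 FPKM added before the logarithm: they were 5555 and 2859 with 0.1 FPKM added, and 1128 and 1337 with 5 FPKM, where the lower loci were the larger number. No locus called with and without that library changed direction.

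The size of the differences is tied to the value added before the logarithm. Higher loci had a median log2 fold change of 1.23 and lower loci one of -1.56, on the log2(FPKM + 1) scale, which understates folds where levels are low. Differences of 8-fold or more were reached by 154 higher loci (1.24%) and 382 lower loci (3.07%). With 0.1 FPKM added there were more higher than lower loci at that fold, 1563 and 1038, and with 5 FPKM there were 31 and 111. At 1 FPKM added, those counts were 86 and 215 with late replicate 1 put back, and without late replicates 4 and 8, whose profiles are described below, they were 313 and 311. The filter still asked for 7 libraries there, so loci reaching 1 FPKM in late libraries alone were not tested. Leaving out any single late library gave 104 to 219 higher and 291 to 329 lower loci at that fold, under the same filter. Libraries did not overlap between the groups at 2127 higher loci (17.1%) and 1550 lower loci (12.4%).

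**Figure D1:**
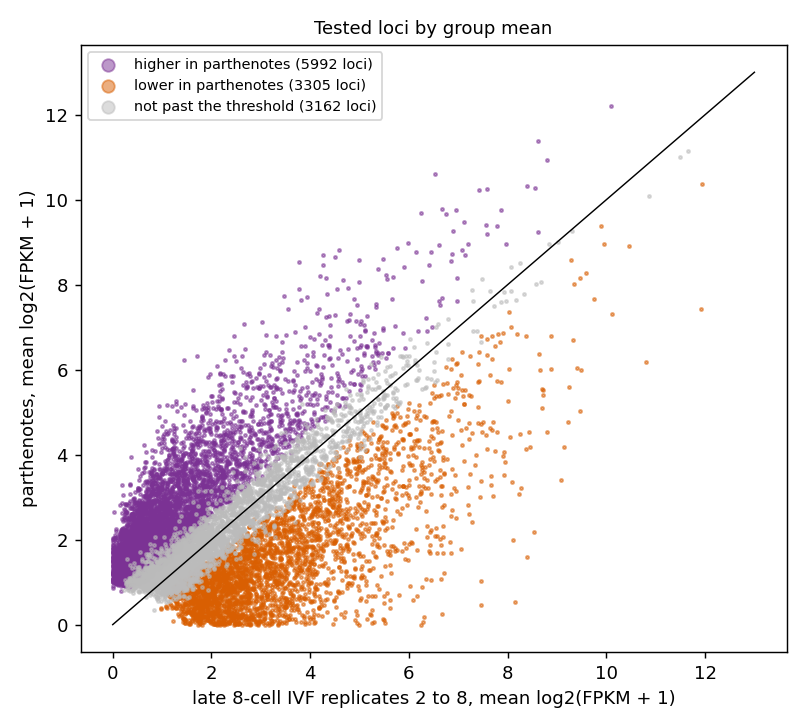
Each point is a tested locus, with its mean log2(FPKM + 1) over the 7 late 8-cell IVF libraries on the x axis and over the 11 parthenotes on the y axis, and equal levels on the line. The 5992 higher loci lie above the line and the 3305 lower loci below it, and some of the lower ones lie near 0 in parthenotes.

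The balance between directions depended on the filter for low values and on how libraries were scaled. A locus present in late embryos alone had to reach 1 FPKM in all 7 of them, whereas one present in parthenotes alone needed 7 of 11. With a filter that asks the same of both groups, a median of at least 1 FPKM in either, 6455 loci were higher and 4724 lower of 14224 tested. That filter was chosen after the data were seen. With no filter 8889 were higher and 7127 lower of 81182. Over the whole set of tested loci, the middle log2 fold change was 0.51 as deposited. It was 0.57 with libraries rescaled to a common sum, 0.36 under median-of-ratios factors, and 0.23 once quantiles were equalised. At a fold of at least 2, quantile normalization gave 2743 higher and 2784 lower loci, so at that fold the larger count changed direction with the scale as it did with 5 FPKM added. None of these scalings turned the direction of a called locus. With the transcripts of each locus summed, 9 loci were called in the opposite direction.

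Passing the filter already fixed part of the calls. Of the tested loci, 1442 reached 1 FPKM in 7 or more parthenotes and in no late library, and all 1442 were called higher. Another 430 reached it in all 7 late libraries and in no parthenote, and all 430 were called lower. Among the 10587 loci that reached 1 FPKM in at least 1 library of each group, 4550 were higher and 2875 lower.

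Direction changed with abundance. In the weakest class, below 2 FPKM on average, 61.0% of 4413 loci were higher in parthenotes and 13.01% lower. Among 2188 loci at 10 to 100 FPKM, 35.2% were higher and 40.4% lower, and in the strongest class, from 100 FPKM, 73 of 194 were higher and 90 lower. With 1 FPKM added before the logarithm, no locus with a mean below 2 FPKM could reach a fold of 8, so that class held none by construction. The filter bears on the low classes, and differences between classes were not tested. The classes were counted on values as deposited. Scaling moved the middle log2 fold change of all tested loci, from 0.57 with a common sum to 0.23 with quantiles equalised, so the shares depend on it.

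**Figure D2:**
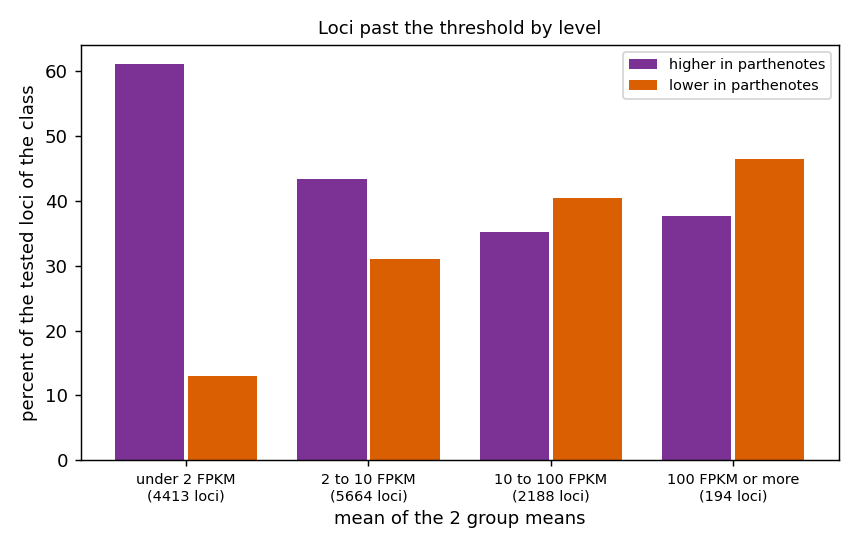
Bars give the percent of the tested loci in each class of mean level that were higher (left bar) or lower (right bar) in parthenotes past the threshold. The share of higher loci is 61.0% in the class under 2 FPKM, and the lower loci are the larger part in both classes from 10 FPKM upwards.

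The most abundant loci largely exchanged places. Of the 100 highest loci by mean in parthenotes, 68 were higher than in late embryos and 11 lower. Of the 100 highest in late embryos, 13 were higher in parthenotes and 70 lower, 38 of them by a fold of at least 8. Only 40 loci stood in both lists of 100. Each list was chosen on the level in its own group, so these counts describe the turnover and do not test it.

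The number of loci at each level was then counted per library. Loci at 100 FPKM or more numbered 155 to 205 in parthenotes with a median of 179, against 211 to 280 in late embryos with a median of 243. The groups did not overlap, and the mean difference was -65.3 loci (exact two-sided permutation test, p = 3.14e-05, the smallest that 31824 assignments can give, and 0.000251 after adjustment over 8 measures). Late replicate 1 had 169, within the parthenote range, and with it in the late group the difference was -55.7 (exact permutation test, adjusted p = 0.0036). This difference passed under each of the scalings tried for it and without any single library.

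Weakly expressed loci went the other way. Loci at 1 FPKM or more numbered 11601 to 15540 in parthenotes with a median of 13156, against 9454 to 13410 in late embryos with a median of 11568. The ranges overlapped, and parthenotes had 1757 more on average (exact permutation test, two-sided, p = 0.00446 and adjusted p = 0.0178). With late replicate 1 in the late group they had 1809 more (exact permutation test, adjusted p = 0.00863). With median-of-ratios factors the difference was 611 loci and did not pass (exact permutation test, adjusted p = 0.353). At 5 FPKM the groups differed by 113 loci (4052 ± 232, SD, n = 11, in parthenotes and 3939 ± 333, SD, n = 7, in late embryos), which did not pass (exact permutation test, adjusted p = 0.55). That difference passed in opposite directions under other settings. It was -381 loci with median-of-ratios factors (adjusted p = 0.00503), 349.5 loci with a common sum (adjusted p = 0.0351) and 591 loci with transcripts summed per locus (adjusted p = 0.00421, exact permutation tests), so no direction is given for it. At 0.1 FPKM parthenotes had 4196 more loci (exact permutation test, adjusted p = 0.0298). That call was lost without late replicate 2, 6, 7 or 8, without parthenote replicate 10 or 11, without parthenote replicates 2 and 4 together, and with median-of-ratios factors (adjusted p = 0.05005 to 0.0741 over these, exact permutation tests). The difference was 2983 loci without late replicate 6 and 3488 to 4175 loci in the others of these settings. Late replicate 6, with the lowest count at each of these levels except 100 FPKM (where replicate 4 equalled it), was also the shallowest library, and the part of depth in these counts was not tested.

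**Figure D3:**
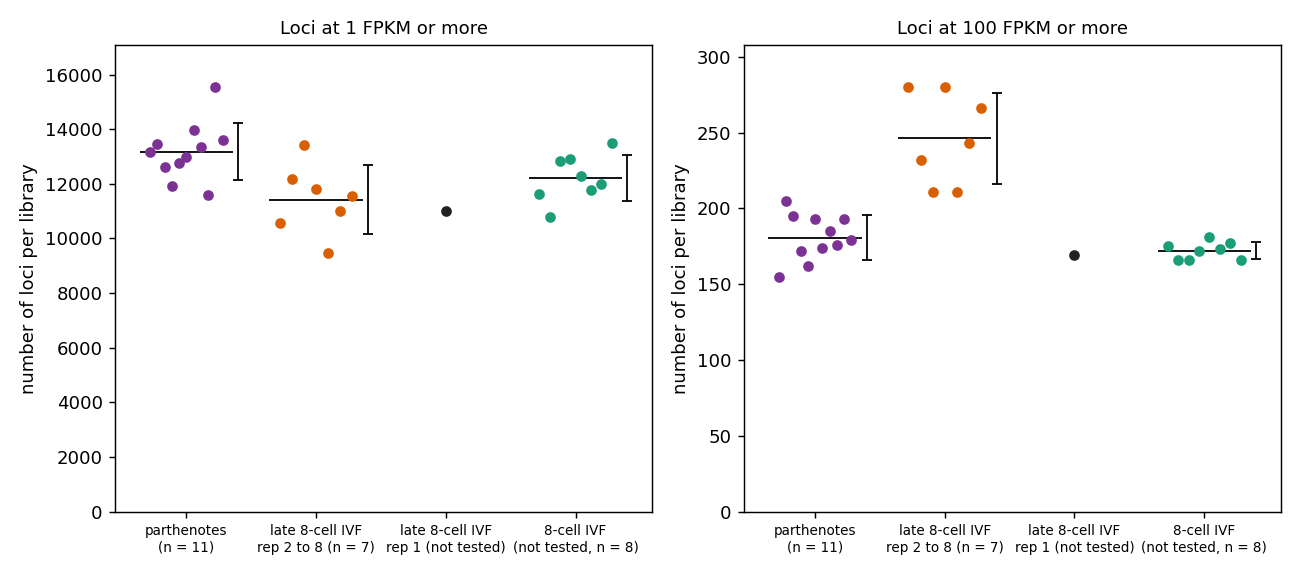
Points are libraries, lines are group means and bars are SD, for how many loci reached 1 FPKM (left) and 100 FPKM (right). At 100 FPKM the 11 parthenotes lie between 155 and 205 and the 7 late libraries between 211 and 280, with late replicate 1 at 169 and the 8-cell IVF libraries beside the parthenotes.

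How concentrated the RNA was did not separate the groups past the threshold. The 10 highest loci of each library held 14.1% ± 3.09 of the FPKM sum in parthenotes (SD, n = 11) and 14.4% ± 2.08 in late embryos (SD, n = 7; exact permutation test, adjusted p = 0.836). The 100 highest held 36.6% ± 3.95 in parthenotes and 35.95% ± 2.43 in late embryos (SD, n = 11 and 7; exact permutation test, adjusted p = 0.804). Parthenote replicate 4 had the lowest share of all, with 7.76% in its 10 highest loci. The FPKM sum over loci, from which these shares are taken, was 164325 ± 10560 in parthenotes and 177184 ± 17863 in late embryos (SD, n = 11 and 7; exact permutation test, adjusted p = 0.138). That difference, -12859, passed without late replicate 6 at -17022 (adjusted p = 0.0396), with median-of-ratios factors at -40549 (adjusted p = 0.000377) and with transcripts summed per locus at -50333 (adjusted p = 0.000126, exact permutation tests).

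Loci present in only 1 of the groups were counted over all loci, with no filter and no test. Off was set as a median under 0.1 FPKM and on as a median of at least 1 FPKM. In this sense 1357 loci were on in parthenotes and off in late embryos, and 1239 were off in parthenotes and on in late embryos. Those on in parthenotes were weak, with a median level of 1.46 FPKM in parthenotes and 4 loci at 10 FPKM or more. Those on in late embryos had a median level of 1.84 FPKM there, with 60 loci at 10 FPKM or more and the highest at 374 FPKM. With late replicate 1 put back the counts were 1091 and 1005.

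The choice by group medians fixes that most parthenotes are low and most late libraries high at the late-only loci, so the counts per library only describe how libraries of a group varied. Of the 1239 loci, parthenotes had 3 to 117 at 1 FPKM or more. Replicate 2 had the 117, replicate 8 had 58 and replicate 4 had 45, and each of the other 8 parthenotes had 15 or fewer. The 7 late libraries had 772 to 1034 of them at that level, with the lowest count in the shallow replicate 6. Late replicate 1 had 5, and the 8-cell IVF libraries had 8 to 51.

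The same holds for the parthenote-only loci, where the late libraries varied. Of the 1357 loci, late replicates 4 and 8 had 193 and 218 at 1 FPKM or more, and the other 5 late libraries had 5 to 57. Parthenotes had 682 to 1187 of them, lowest in replicate 4. Late replicate 1 had 594, below each parthenote, and the 8-cell IVF libraries had 677 to 900. In 831 of the 1357 loci the 8-cell IVF median was also 1 FPKM or more, and in 77 it was under 0.1 FPKM.

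A stricter count asked for complete separation. In 12 loci each parthenote was listed at 0 and each of the 7 late libraries had at least 1 FPKM, with late values from 1.02 to 522 FPKM. The highest late median among the 12 was 118 FPKM, and the next were 18.4 and 11.04 FPKM. Late replicate 1 was listed at 0 in all 12, and each 8-cell IVF library was at 0 in 10 of them, the other 2 reaching at most 1.22 FPKM. An exact 0 in a file without counts can be a failed estimate, so no fold is given. The opposite pattern, at least 1 FPKM in each of 11 parthenotes and 0 in each of 7 late libraries, was met by 1 locus, at 1.082 to 6.18 FPKM in parthenotes, and asks for more libraries above 1 FPKM. Of the 8-cell IVF libraries, 2 were at 0 for that locus, and late replicate 1 had 2.28 FPKM.

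Loci are named here by a rule on size: the extreme fold changes among the 1441 called loci without overlap between groups that averaged 10 FPKM or more in whichever group was higher. The files pair them with no gene name, and loci that an earlier account of these data had singled out were passed over. Their levels describe what the rule picked.

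MSTRG.72883 was close to absent from parthenotes. It was listed at 0 in 7 of 11, had a median of 0 and reached 7.19 FPKM in replicate 2, with each other parthenote under 1 FPKM. Late embryos had 82.7 to 351 FPKM with a median of 174 FPKM. The log2 fold change was -7.01 (SE 0.37; limma, adjusted p of 3.3e-12), and -6.07 (SE 0.77, adjusted p = 3.1e-06 by limma) with late replicate 1, where the locus was listed at 0. With most parthenotes at 0 the size of this value is set largely by the added constant: it was -9.46 with 0.1 FPKM added and -5.02 with 5 FPKM.

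MSTRG.25701 showed the same contrast with more spread among parthenotes. They ranged from 0, the value listed in 5 of them, to 33.7 FPKM in replicate 2, with a median of 0.011 FPKM, and replicate 8 was next at 4.59 FPKM. Late embryos had 108 to 379 FPKM with a median of 160.0 FPKM, so the groups lay well apart. The log2 fold change was -6.44 (SE 0.57; limma, adjusted p of 4.8e-09), and -5.50 (SE 0.87, adjusted p = 2.1e-05 by limma) with late replicate 1, again listed at 0. It was -8.45 with 0.1 FPKM added and -4.73 with 5 FPKM. In the 8-cell IVF libraries this locus was at 0 to 2.56 FPKM and MSTRG.72883 at 0 to 3.53 FPKM.

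MSTRG.8057 was abundant in parthenotes, at 212 to 721 FPKM with a median of 436 FPKM. Late embryos had 2.57 to 81.0 FPKM with a median of 22.1 FPKM. The log2 fold change was 4.45 (SE 0.45; limma, adjusted p of 3.4e-08), and 3.75 (SE 0.68, adjusted p = 7.7e-05 by limma) with late replicate 1. That library held 967 FPKM, more than any parthenote, while the 8-cell IVF libraries held 269 to 600.0 FPKM, inside the parthenote range.

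MSTRG.29106 had another pattern. Parthenotes had 32.5 to 192 FPKM with a median of 82.1 FPKM, and the highest was replicate 2. Late embryos had 0 to 21.6 FPKM with a median of 0.594 FPKM, and the highest was replicate 4, followed by replicate 8 at 7.54 FPKM. The log2 fold change was 4.60 (SE 0.52; limma, adjusted p of 1.2e-07), and 4.82 (SE 0.51, adjusted p = 8.4e-07 by limma) with late replicate 1. It was 5.70 with 0.1 FPKM added and 3.33 with 5 FPKM, where MSTRG.8057 had 4.57 and 4.09. Unlike at MSTRG.8057, late replicate 1 lay with the late group here, listed at 0, and the 8-cell IVF libraries had 9.93 to 57.1 FPKM, overlapping the lower part of the parthenote range.

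**Figure D4:**
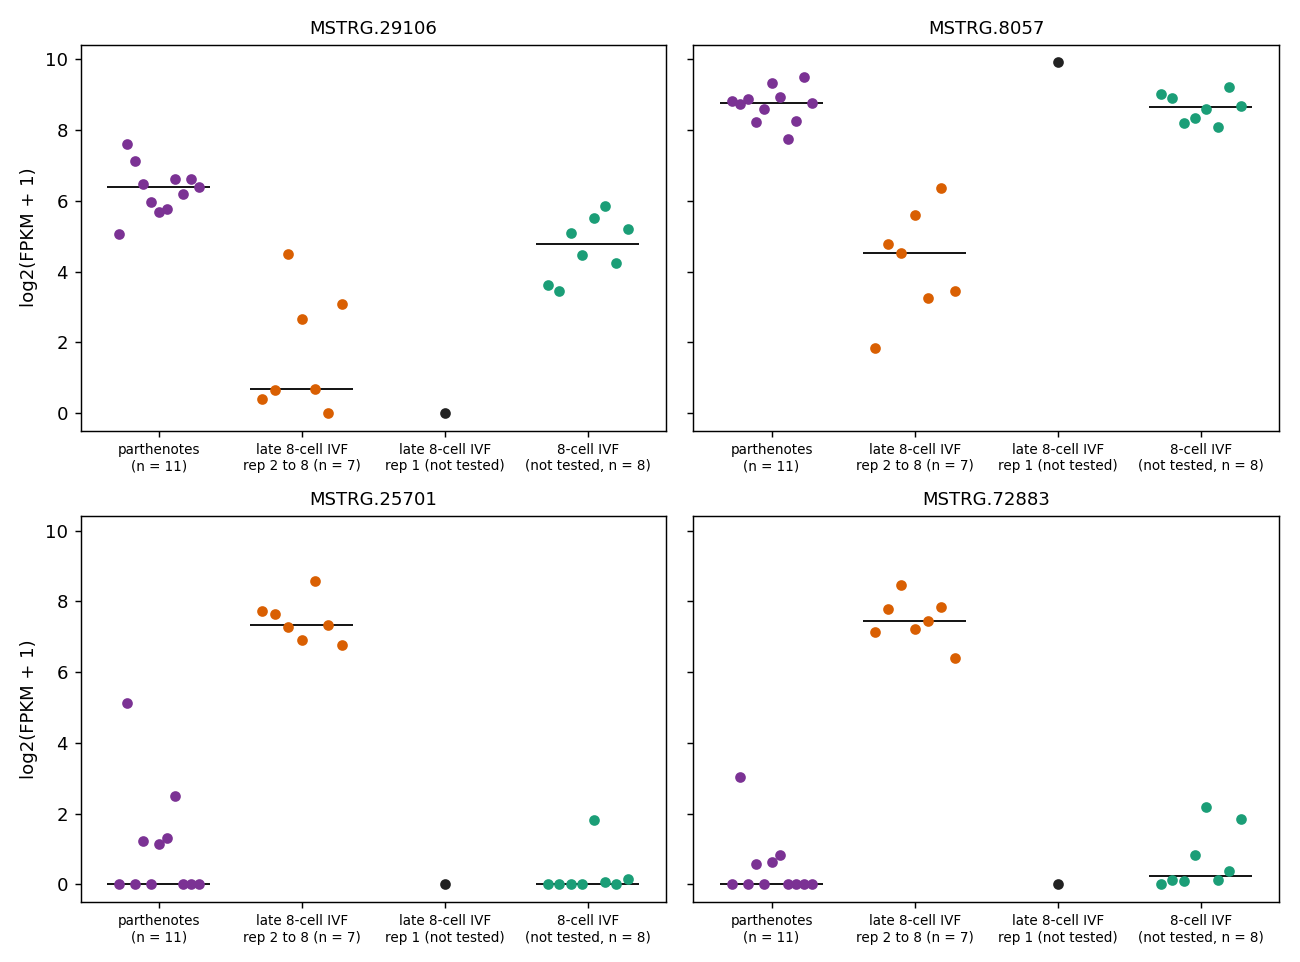
Points are libraries and lines are group medians of log2(FPKM + 1) for the 4 named loci, with late 8-cell IVF replicate 1 and the 8-cell IVF libraries beside the tested groups. At MSTRG.8057 late replicate 1 is the highest of all libraries at 967 FPKM, whereas at MSTRG.29106 it is listed at 0, below each parthenote.

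To see how far each library carried the difference, loci at a fold of at least 2 were called in a fit without that library, and their share of its FPKM sum was taken. The loci higher in parthenotes held 46.9% to 54.0% of the sum in held-out parthenotes with a median of 51.1%, against 4.87% to 18.5% in held-out late libraries with a median of 10.5%. The loci lower in parthenotes held 7.04% to 15.3% in parthenotes with a median of 9.06%, against 40.5% to 54.8% in late libraries with a median of 48.3%. These lower loci numbered 2485 to 2515 for held-out parthenotes and 1927 to 2081 for held-out late libraries, so the sets differ. The 18 libraries did not overlap between groups on either share. Late replicate 1, which lay with the parthenotes on both, had been left out for its profile, so the separation is conditional on that choice and over the late group as labelled the groups overlap. The values describe how alike the 18 libraries were within their groups.

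Among parthenotes, replicate 2 lay closest to the late group on both shares, at 46.9% and 15.3%, followed by replicate 8 at 48.3% and 12.6%. Of the lower loci, 86.6% in replicate 2 and 87.0% in replicate 4 were on the parthenote side of the midpoint between the group means, and the other parthenotes had 91.2% to 98.6%. Replicate 4 had the smallest part of the higher loci on that side, 71.6%, against 80.9% to 95.4% in the others. Replicate 2 correlated with late libraries at up to 0.681, the highest value of any pair between the groups. Without replicates 2 and 4 the counts were 5648 higher and 3185 lower loci.

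Among late embryos, replicates 4 and 8 kept the most of the loci higher in parthenotes, at 17.0% and 18.5% of the FPKM sum. The lowest shares were 4.87% in replicate 2 and 6.19% in replicate 6. In replicates 4 and 8, 28.3% and 26.7% of those loci were on the parthenote side of the midpoint, against 2.14% to 8.90% in the other 5. These 2 libraries correlated with each other at 0.905, against 0.753 to 0.868 with the other 5, which correlated among themselves at 0.855 to 0.925. Their relative depths, 1.18 and 1.05, lay within the range of their group. Without them 5906 loci were higher and 2589 lower in parthenotes, and 4478 and 1903 at a fold of at least 2. That fit still asked for 1 FPKM in 7 libraries, so loci reaching it in late libraries alone could not be tested. Leaving out any single late library gave 2577 to 2826 lower loci, so the lower counts do not show an effect of these profiles.

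**Figure D5:**
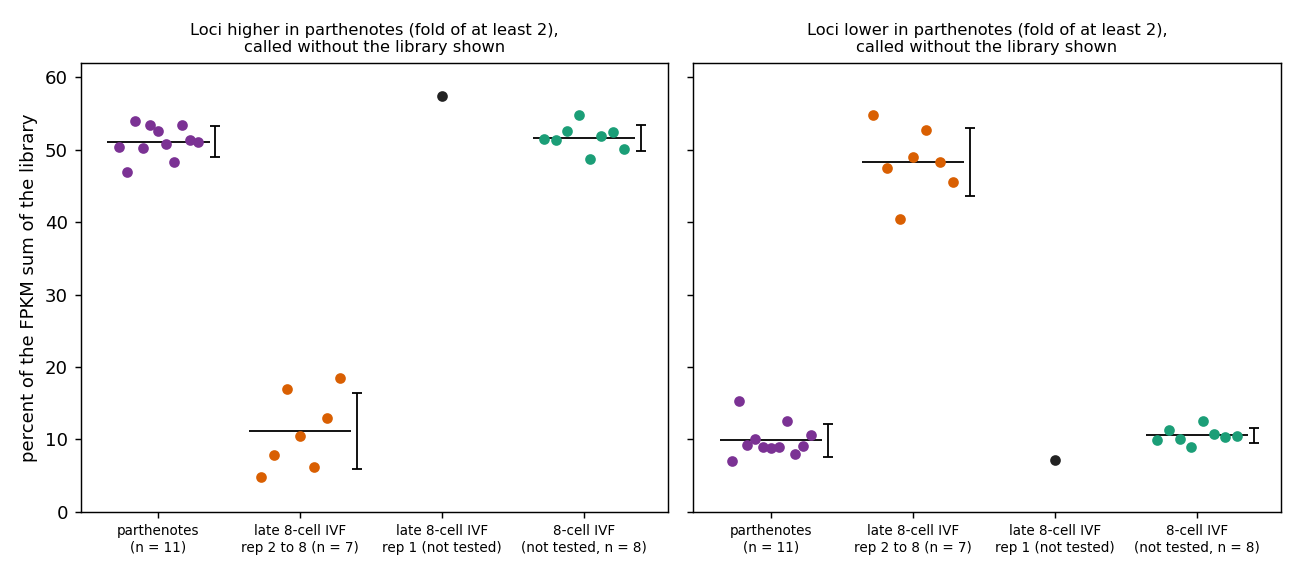
Points are libraries, lines are group means and bars are SD, for the percent of the FPKM sum in loci higher (left) and lower (right) in parthenotes, called without the library shown. Parthenotes lie at 46.9% to 54.0% on the left and 7.04% to 15.3% on the right, late replicates 4 and 8 are the highest late points on the left, and late replicate 1 lies at 57.4% and 7.17%.

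Late replicate 1 carried 57.4% of its FPKM sum in the loci higher in parthenotes, more than any held-out parthenote, and 7.17% in the lower loci. Its level was nearer to the parthenote mean than to the late mean at 2431 of the 2521 lower loci (96.4%) and at 3197 of the 4085 higher loci (78.3%). The 8-cell IVF mean was nearer to parthenotes at 2505 of the lower loci (99.4%) and 3661 of the higher loci (89.6%). A mean of 8 libraries varies less than 1 library, so these percents are not comparable with those of replicate 1. Taken singly, the 8-cell IVF libraries were nearer at 94.7% to 97.6% of the lower loci and 78.0% to 89.6% of the higher loci. Late replicate 1 lay inside both of these ranges. The 8-cell IVF libraries held 48.7% to 54.8% of their FPKM sum in the higher loci and 9.01% to 12.5% in the lower loci. On these shares late replicate 1, at 57.4% and 7.17%, lay outside both 8-cell IVF ranges. Parthenotes spanned 46.9% to 54.0% and 7.04% to 15.3%, so parthenotes and 8-cell IVF libraries overlapped on both shares. These values set levels side by side, and the 8-cell IVF libraries differ from all others in request number.

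Spread within the groups was taken per locus. The median SD of a locus on the log2 scale was 0.46 over parthenotes and 0.54 over late embryos, with the larger SD in parthenotes at 5004 loci and in late embryos at 7455. Without parthenote replicate 4 the parthenote value was 0.395. Where parthenotes were lower 2-fold or more, the median SD was 0.41 in parthenotes and 0.65 in late embryos. The median log2 level there was 1.16 and 3.31, and adding 1 FPKM narrows the spread of low levels. At the higher loci the median SD was 0.52 in parthenotes and 0.50 in late embryos, at median log2 levels of 2.41 and 0.77. The difference in spread was not tested.

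All transcripts were also fitted as a table of their own. Of 33923 that reached 1 FPKM in at least 7 libraries, 15076 were higher in parthenotes (44.4%) and 10922 lower (32.2%). With late replicate 1 put back there were 14619 and 10212 of 34588. With the filter on the median of either group there were 16009 higher and 14547 lower transcripts of 38229. Transcripts of a locus share reads, so their calls are not independent of each other.

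Transcripts of the same locus mostly moved together. At 6240 loci with 2 or more tested transcripts, each tested transcript was higher at 2752 loci and lower at 1645. At 1077 loci no transcript passed. At 109 loci (1.75%) 1 transcript was higher in parthenotes and another lower, and at 43 of these both did so by a fold of at least 2. The transcript with the highest mean differed between the groups at 1006 loci (16.1%), 76 of which were among the 109. How reads were divided among the transcripts of a locus is not given in the sources used here, so such changes of transcript are uncertain.

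By assembly, loci with 1 transcript were higher in parthenotes in 46.9% and lower in 24.1% of 4891 cases. For loci with 2 to 4 transcripts the shares were 50.7% higher and 26.4% lower of 4330. For those with 5 or more they were 46.4% higher and 30.4% lower of 3238. Each class lies near the background of 48.1% and 26.5% for all tested loci.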

How the data were processed

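RNA was amplified with the SMART-Seq v4 kit for ultra low input and tagmented with Nextera XT, per the labels' protocols. The authors deposited FPKM per assembled transcript, and the submitters' processing notes name FastQC 0.10.1, TopHat2 2.1.0 and StringTie without a version. Genome build, annotation, filters and strand setting were not stated there. FPKM hides read numbers, so no count test was run and total depth is unknown.

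Columns were assigned by the library names in the labels, and 0 columns of per-sample values were left unused. No pair of libraries was identical, and 2 tested loci had the same values in each of the 18 libraries. The 2 groups were fitted alone with limma 3.58.1 in R 4.3.3, with trend and robust moderation, two-sided, adjusted by Benjamini and Hochberg over all features of the table. Data were simulated from residuals of 12459 loci, shuffled within each locus, with 100 loci changed per fold size. Changed loci were drawn only from those above a minimum mean level. Of these, 49% at a log2 fold of 1 and 95% at 2 were recovered, with 3 false calls. The shuffle removes likeness between libraries, and far fewer loci were changed than the 74.6% called. These rates therefore do not carry over to the real fit. Single values per library were tested by exact permutation over 31824 assignments, adjusted over 8 measures, in Python 3.11.15. Relative depth used transcripts above 0 in at most 9 libraries at 0.05 to 5 FPKM, and 95.2% of library pairs lay within 0.03 log2 of the fitted depths. Named loci were the 2 largest and 2 smallest fold changes among called loci with no overlap between groups and a mean from 10 FPKM in the higher group, other than 4 described earlier. Alternatives changed the filter, scaling, pseudocount, libraries and model. Members, rules and lists were chosen with earlier results of these data known.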

Additional observations from a re-analysis of the deposited data

Results flagged for a closer look

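In groups of 7 or 8 libraries a library was set apart where its gap to the nearest other library took more of the group's range than Dixon's 95% critical value. For normally spread values chance sets apart about 1 in 20 groups, and 28 were examined, over the late 8-cell IVF libraries with and without replicate 1. Levels of the named loci were taken as FPKM and not on the log2 scale, where gaps between high values are smaller. That rate may therefore not hold for them. With the group as labelled, replicate 1 stood apart with 57.4% of its FPKM sum in loci higher in parthenotes and 7.17% in loci lower in parthenotes. Replicate 1 had been left out for its profile, and these loci were called without it. Its place on these shares therefore restates that choice and is no separate result. Replicate 1 also stood apart at MSTRG.8057 with 967 FPKM. At MSTRG.29106 replicate 4 stood apart with 21.6 FPKM, both with and without replicate 1. At MSTRG.25701 replicate 6, the shallowest library, stood apart with 379 FPKM among replicates 2 to 8. The named loci were chosen for lying outside the other group, so their spread within the late group is not independent of that choice.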

How the results depend on the processing

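The calls of the 4 named loci passed in the same direction under each alternative that tested them. MSTRG.72883 was not tested without late replicates 4 and 8, where too few libraries reached 1 FPKM. Counts of all called loci and transcripts moved by over 1.5 times only with the filter: at 5 FPKM there were 2015 higher and 1399 lower loci and 4483 higher and 3974 lower transcripts, among fewer features. With no filter there were 7127 lower loci, 33838 higher and 23570 lower transcripts. Leaving out 1 library gave 5582 to 5946 higher and 2577 to 3283 lower loci, 14222 to 15037 higher and 8752 to 10875 lower transcripts. Without 1 late library there were 2577 to 2826 lower loci and 8752 to 9447 lower transcripts. Without 1 parthenote there were 3211 to 3283 and 10668 to 10875. The filter stayed at 7 libraries, so without a late library features reaching 1 FPKM in late embryos alone could not pass it. Leaving out 1 library also gave a difference of 1429 to 2089 loci at 1 FPKM or more, 1185 to 1349 loci on in late embryos alone and 1065 to 1503 on in parthenotes alone. With median-of-ratios factors the difference at 1 FPKM was 611 loci (exact permutation test, adjusted p = 0.353) and at 5 FPKM -381 loci, against 349.5 with a common sum and 591 with summed transcripts, and the cause was not tested. These settings were applied to measures other than loci at 1 FPKM after the data were seen, as were the fits without pairs of libraries. The share of the 100 highest loci turned to a difference of -1.88 percentage points with transcripts summed per locus. That of the 10 highest, -0.309 over all 18 libraries, spanned -0.699 to 0.320 with 1 library left out: it was 0.320 without parthenote replicate 4, 0.147 without late replicate 6 and 0.642 without parthenote replicates 2 and 4, none past the threshold (exact permutation tests, adjusted p = 0.561 to 0.911). Counts at a fold of at least 2 or 8 depend on the value added before the logarithm, in number and in which direction is larger. Library numbers do not pair the samples: deviations of same-numbered libraries correlated at -0.179 to 0.137, and 2 of 7 late libraries correlated best with their own number. With the replicate number as a block 5575 loci were higher and 3005 lower, and 14233 and 10006 transcripts.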
